A study of Mus musculus with 20 samples.

Results

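The endocannabinoid receptor and enzyme genes studied here encode the cannabinoid receptor CB1 (Cnr1) and the enzymes that make or break down its 2 main lipid ligands (Dagla, Daglb, Mgll, Abhd6, Abhd12, Napepld and Faah). They were chosen by name, from what their proteins are known to do, with earlier results of these data known. All 8 were among the 12988 genes of the count table, and all 8 passed the filter on low counts. RNA was sequenced from adBNST, the anterodorsal part of a forebrain nucleus that lies along the stria terminalis. The groups, 4 of 15 mice each, were female controls, stressed females, male controls and stressed males, aged 7 to 9 weeks at assignment; the sources used here name no strain, genetic alteration or drug treatment. Stressed mice went through chronic variable mild stress (CVMS), a 6-week schedule of changing minor stressors, and their tissue was taken 1 hour after the last one, wet bedding. All groups had ketamine anaesthesia before dissection, and each library pools the tissue of 3 mice, so 5 libraries stand for each group and 20 for the study.

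Endocannabinoids are lipids that neurons release from their own membranes. They travel back across the synapse to CB1, a receptor on presynaptic axon endings, and lower the release of glutamate or GABA there. The ligand 2-arachidonoylglycerol (2-AG) is made by the diacylglycerol lipases Dagla and Daglb and is broken down mainly by monoacylglycerol lipase (Mgll), with the serine hydrolases Abhd6 and Abhd12 as further routes. Anandamide, the other main ligand, can be released from its membrane precursor by the phospholipase Napepld, and it is hydrolysed by fatty acid amide hydrolase (Faah). In the bed nucleus this signalling is known for tuning excitatory and inhibitory input, and it has been studied there in relation to stress.

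None of the 8 genes passed the test in any of the 5 comparisons made (stressed against control mice in each sex, males against females in each condition, and the difference between the sexes in the stress effect). Differences were small, and the largest in size was 0.26 on the log2 scale, for Mgll in males. Unadjusted p-values under 0.05 were reached by Cnr1 with stress in females, by Mgll and Faah with stress in males and by Dagla with sex in controls. The test was edgeR's quasi-likelihood test with Benjamini-Hochberg adjustment over all 12988 genes, with a threshold of 0.05, and every adjusted p below comes from it unless another tool is named. CPM are counts scaled by library size with edgeR's TMM factors, and group values are mean ± SD over 5 libraries.

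Total counts ran from 2.71 M in female control 4 to 33.6 M, and the 40 pairs of libraries within a group correlated at Pearson r between 0.986 and 0.996. Markers of GABAergic and bed nucleus neurons were present in every library, 11 of 11 listed, with a summed level between 2376 and 2848 CPM. Its largest parts were Gad2 (mean 1125 CPM), Gad1 (706) and Slc32a1 (302), which mark GABAergic neurons in general. The sum is therefore no measure of bed nucleus content alone. Markers of striatal neurons, the neighbouring region, were present too, 11 of 11, and their summed level differed between groups: female controls had 2804 to 5064 CPM, stressed females 2727 to 5679, male controls 2605 to 3313 and stressed males 3712 to 5742. In bulk tissue, fewer cells of a type and less RNA per cell cannot be told apart. Replicates are separate pools, so p-values measure the spread between pools and not between single mice.

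Levels between genes can be compared per length, as CPM per kilobase of exon. Abhd12 was the most abundant of the 8, at 79.1 ± 4.19 CPM per kilobase (SD, n = 20 libraries). Mgll followed at 22.3 ± 2.57, Cnr1 at 21.03 ± 3.36 and Abhd6 at 17.9 ± 1.00, so the chief 2-AG hydrolase and the receptor stood at nearly the same level. Dagla stood at 13.1 ± 1.48 CPM per kilobase, and Daglb, the other lipase that makes 2-AG, was the lowest of all per length at 2.95 ± 0.180. The anandamide enzymes were low as well, with Faah at 4.15 ± 0.353 and Napepld at 3.50 ± 0.485. The length used is the union of all annotated exons of a gene, and the order depends on it. In CPM, without length, Faah had 32.5, Daglb 28.3 and Napepld 13.9. Ranges per length over the 20 libraries did not overlap between Abhd12 and Mgll, between Abhd6 and Dagla, or between Dagla and Faah. They overlapped between Mgll and Cnr1, Cnr1 and Abhd6, Faah and Napepld, and Napepld and Daglb, so the order of these neighbours is not set apart by their spread.

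**Figure D1:**
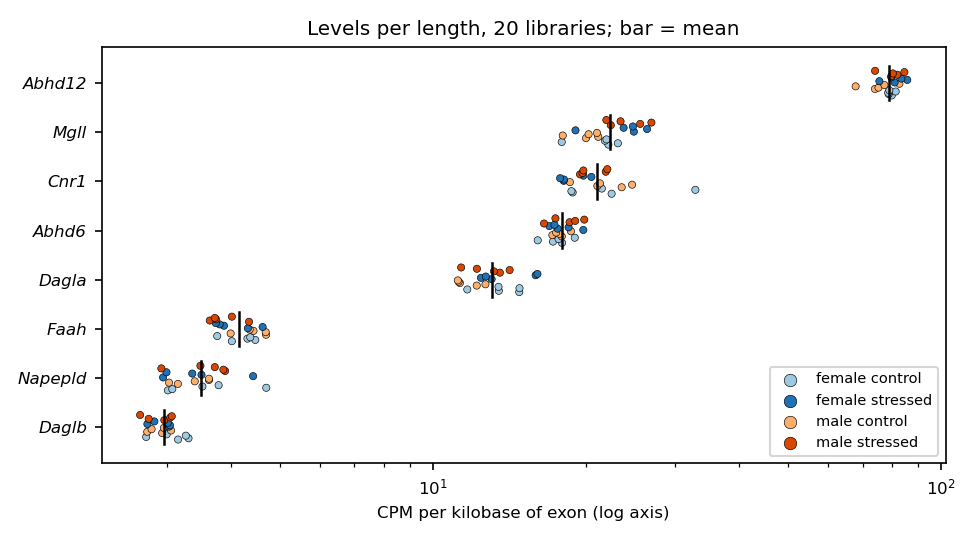
Level of each gene per length in the 20 libraries, as CPM per kilobase of exon on a log axis; points are libraries coloured by group and the bars are means over all libraries. Abhd12, at a mean of 79.1, lies above the other genes in every library, and Daglb and Napepld share the bottom of the range with Faah.

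The genes also differed in how much they varied from library to library. The coefficient of variation of the CPM over 20 libraries was 5.30% for Abhd12, 5.61% for Abhd6 and 6.09% for Daglb. It was 8.50% for Faah, 11.3% for Dagla, 11.5% for Mgll, 13.8% for Napepld and 15.96% for Cnr1. Thus, over all 20 libraries, the 2 additional 2-AG hydrolases were the steadiest of the set and the receptor the most variable. The rank of the receptor leans on 1 library, female control 4, which held its highest value. Within groups, the coefficient of Cnr1 was 25.4% in female controls, which include that library. It was 6.40% in stressed females, 10.8% in male controls and 6.18% in stressed males.

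**Figure D2:**
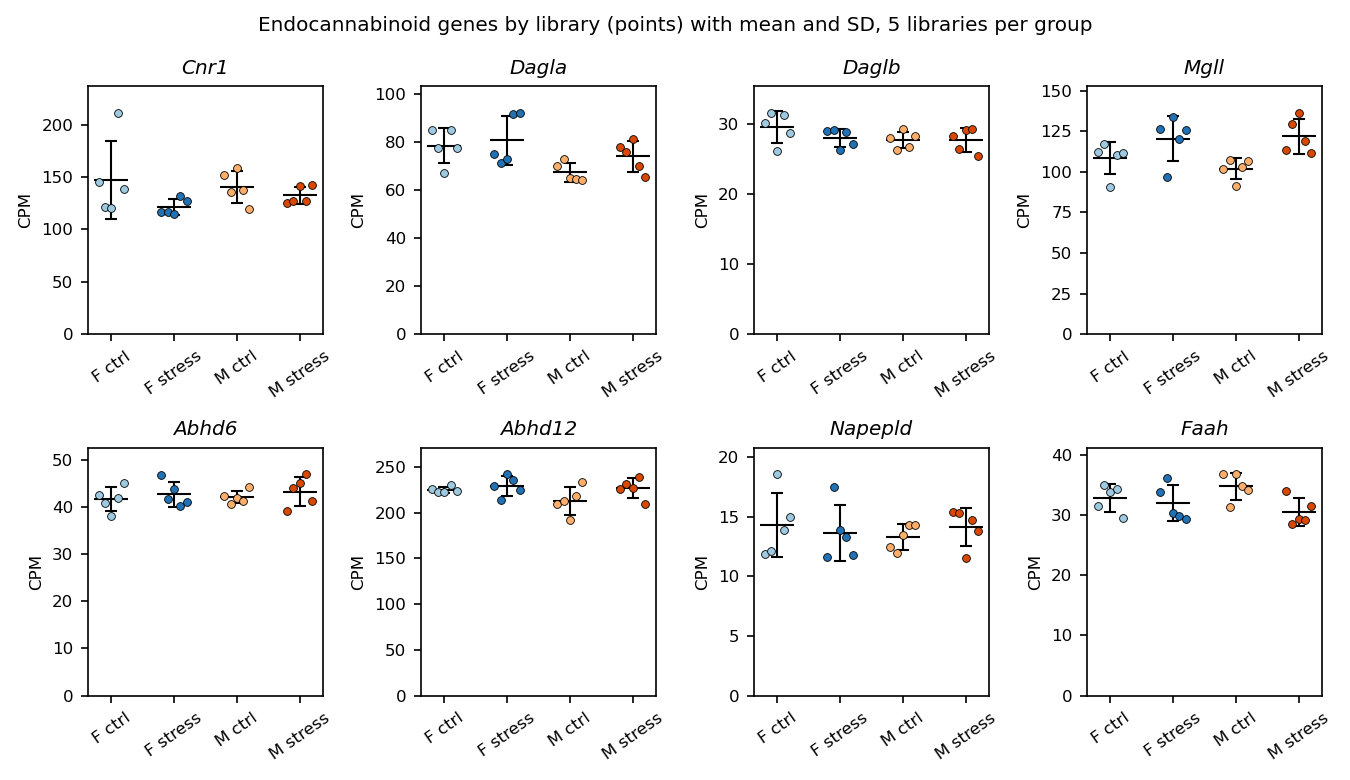
CPM of the 8 genes in each library; points are libraries, and bars give the mean and SD of 5 libraries for female controls (F ctrl), stressed females (F stress), male controls (M ctrl) and stressed males (M stress). Stressed and control libraries of a sex overlap in all panels except for Mgll in males, and the isolated point for Cnr1 is female control 4, at 211.6 CPM.

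The 250 bases before the most upstream RefSeq start (assembly GRCm38.p6) are shown for the receptor and for the main hydrolase of each ligand, Mgll and Faah, whose levels ran in opposite directions across libraries. Each is given 5′ to 3′ on the gene's own strand, with capitals for any match to GGGCGG (the GC box), CCAAT, TGACGTCA (the cAMP response element), CACGTG (an E-box) or TATAAA, searched on both strands. The stretches lie at chr4:33924014-33924263 (+) for Cnr1, chr6:88724162-88724411 (+) for Mgll and chr4:116017925-116018174 (-) for Faah.
Cnr1: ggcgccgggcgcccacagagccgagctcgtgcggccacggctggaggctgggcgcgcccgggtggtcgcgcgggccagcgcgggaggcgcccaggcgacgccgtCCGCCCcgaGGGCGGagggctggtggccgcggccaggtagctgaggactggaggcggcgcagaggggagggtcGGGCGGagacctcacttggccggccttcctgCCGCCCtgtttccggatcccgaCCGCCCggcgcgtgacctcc
Mgll: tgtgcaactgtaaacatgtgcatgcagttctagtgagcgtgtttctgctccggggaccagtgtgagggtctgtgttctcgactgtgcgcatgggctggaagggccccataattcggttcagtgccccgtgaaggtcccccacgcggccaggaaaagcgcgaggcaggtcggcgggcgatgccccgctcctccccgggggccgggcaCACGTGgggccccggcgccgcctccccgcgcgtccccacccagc
Faah: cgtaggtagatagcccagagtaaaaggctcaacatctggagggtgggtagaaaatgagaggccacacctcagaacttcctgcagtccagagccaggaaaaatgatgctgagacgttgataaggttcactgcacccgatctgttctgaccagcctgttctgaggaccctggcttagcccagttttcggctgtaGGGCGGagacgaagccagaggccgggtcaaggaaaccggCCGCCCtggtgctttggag
In these windows Cnr1 had 5 GC boxes in a stretch of 79.2% G and C, and Faah had 2 GC boxes at 55.6% G and C. Mgll had a single E-box and no GC box, at 68.0% G and C. Of 32851 RefSeq promoters of the same length, 32.7% held a GC box, 6.0% the E-box, 33.8% CCAAT, 12.4% TATAAA and 1.5% the cAMP response element. Matches are a description of the letters in this window only. Entries were found for 6 of the 8 genes.

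Cnr1 (chromosome 4, 33924593 to 33948831, plus strand; GENCODE M21, GRCm38) encodes CB1, the receptor that both ligands act on in brain. For replicates 1 to 5, female controls had 144.8, 121.4, 120.7, 211.6 and 138.5 CPM of Cnr1. Stressed females had 116.6, 116.7, 114.7, 132.1 and 127.4 CPM. Stressed females were thus near the lower end of the controls and overlapped them, and female control 4 stood far above every other library of the study. The stress difference of Cnr1 in females was -0.25 on the log2 scale (SE 0.11, 95% interval -0.47 to -0.023), with an unadjusted p of 0.0319 and an adjusted p of 0.637, and did not pass. No member passed in this comparison, in which 0% of all genes were called.

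Female control 4 was also the shallowest library, and its Cnr1 value rests on 562 counts, with an exact Poisson 95% interval of 194 to 230 CPM that covers counting error only. The other 4 female controls had 131 ± 12.2 CPM (SD, n = 4), 144.8 at most. Without female control 4 the stress difference of Cnr1 in females was -0.11 (SE 0.076), with an adjusted p of 0.820 by the same edgeR test. With the score of the striatal markers (the mean log2 CPM of the list) in the model, the difference of Cnr1 in females was -0.24.

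Male controls had 151.5, 135.7, 158.8, 137.4 and 119.9 CPM of Cnr1, and stressed males had 125.5, 126.9, 141.0, 127.4 and 142.0 CPM. Those ranges overlap, with the lowest male library a control. The difference of Cnr1 with stress in males was -0.079 on the log2 scale (95% interval -0.30 to 0.14, adjusted p = 0.803), and -0.21 with the striatal score in the model (SE 0.12, unadjusted p = 0.0910, adjusted p = 0.822). Among controls, Cnr1 differed between males and females by -0.039 (95% interval -0.26 to 0.18), and this turned to 0.095 without female control 4. The stress effect on Cnr1 was 0.17 higher in males than in females on the log2 scale (95% interval -0.15 to 0.48, adjusted p = 0.734), and 0.032 higher without that library.

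Dagla (chromosome 19, 10245265 to 10304877, minus strand) encodes the diacylglycerol lipase that supplies most synaptic 2-AG in brain. Female controls had 85.0, 77.5, 67.2, 85.1 and 77.4 CPM of Dagla, and male controls 70.1, 72.9, 65.0, 64.6 and 64.3 CPM. Most female controls were above every male control, but female control 3 lay within the male range. Male controls were 0.21 below female controls on the log2 scale for Dagla (SE 0.083, 95% interval -0.39 to -0.043), with an unadjusted p of 0.0166 and an adjusted p of 0.217. No member passed between control males and females, where 0.747% of all genes did.

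Stressed females had 75.0, 71.5, 73.0, 91.5 and 92.3 CPM of Dagla, and stressed males had 77.9, 75.8, 81.4, 70.2 and 65.3 CPM. Stressed females fell into a higher pair and a lower trio, and stressed males overlapped the male controls. The stress difference of Dagla was 0.051 in females (95% interval -0.12 to 0.22) and 0.14 in males (95% interval -0.031 to 0.30) on the log2 scale. Their difference was 0.086 (95% interval -0.15 to 0.32, adjusted p = 0.858), and the male minus female difference among stressed mice was -0.13 (95% interval -0.29 to 0.037).

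Daglb (chromosome 5, 143464584 to 143505942, plus strand), which encodes a second diacylglycerol lipase found more in microglia and peripheral tissue, stayed within 25.4 and 31.6 CPM in all 20 libraries. Its difference with stress was -0.071 in females (95% interval -0.20 to 0.057) and 0.0021 in males (95% interval -0.12 to 0.13) on the log2 scale. Between the sexes Daglb differed by -0.088 in controls and -0.015 in stressed mice. Daglb shares 2309 bases with Rac1 on the other strand, and whether the counts used strand is not given in the sources used here, so reads of the 2 genes in that stretch may not be told apart.

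Mgll (chromosome 6, 88724412 to 88828360, plus strand) encodes monoacylglycerol lipase, which ends most 2-AG signalling in brain. Male controls had 101.6, 107.4, 91.4, 102.8 and 106.8 CPM of Mgll, and stressed males had 113.7, 129.8, 136.6, 118.8 and 111.4 CPM. Every stressed male library was above every male control. This was 1 member of 8 whose male groups did not overlap, against 4.3% of all genes (3.13% with the stressed males higher). In the other 3 comparisons of groups, 0 of the 8 were without overlap, against 1.22% of all genes with stress in females, 3.97% between control sexes and 1.27% between stressed sexes. The difference of Mgll in males was 0.26 on the log2 scale, or 1.195-fold (SE 0.080, 95% interval 0.091 to 0.42), with an unadjusted p of 0.00407 and an adjusted p of 0.127. It did not pass, as no member did in males, where 0.0077% of all genes were called. DESeq2 gave Mgll an adjusted p of 0.0838 in males.

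Female controls had 112.4, 117.3, 91.0, 110.7 and 111.5 CPM of Mgll, and stressed females had 126.2, 96.9, 133.9, 120.4 and 125.6 CPM. All stressed females but female stressed 2 were above all female controls, and female control 3 was the lowest library of either female group. The difference of Mgll in females was 0.15 on the log2 scale (SE 0.081, 95% interval -0.019 to 0.32), with an adjusted p of 0.703. Without female stressed 2 it was 0.22 (SE 0.072, adjusted p = 0.395), and without female control 3 it was 0.088. The stress effect on Mgll was 0.11 higher in males than in females (95% interval -0.13 to 0.35, adjusted p = 0.790), so the difference between the sexes was smaller than its error.

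The male and female levels of Mgll were close within each condition. Male minus female was -0.086 among controls (95% interval -0.26 to 0.084) and 0.021 among stressed mice (95% interval -0.14 to 0.19) on the log2 scale. No member passed among stressed mice, where 0.077% of all genes were called.

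Over all 20 libraries the further 2-AG hydrolases varied least, but this did not hold within every group. In female controls the coefficients of variation of Abhd12 (1.40%) and Abhd6 (6.08%) were the lowest. In stressed females the lowest was that of Daglb (4.57%). Abhd12 had 7.15% in male controls against 4.36% for Daglb, and Abhd6 had 7.18% in stressed males against 6.18% for Cnr1. Abhd6 (chromosome 14, 8002902 to 8056763, plus strand), a membrane hydrolase on the postsynaptic side, ranged from 38.0 to 46.9 CPM over the 20 libraries. Its stress difference on the log2 scale was 0.034 in females (95% interval -0.087 to 0.15) and 0.042 in males (95% interval -0.076 to 0.16). Abhd12 (chromosome 2, 150832493 to 150904741, minus strand), also known as a lysophosphatidylserine lipase, ranged from 191 to 242 CPM. Its stress difference was 0.028 in females (95% interval -0.076 to 0.13) and 0.085 in males (95% interval -0.019 to 0.19). For both genes the intervals of the stress differences lay within 0.2 of 0 on the log2 scale in either sex.

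Napepld (chromosome 5, 21662901 to 21701396, minus strand), which releases anandamide from its precursor, was the least abundant of the 8 in CPM, from 11.6 to 18.6. Female controls included its highest library, female control 3 at 18.6 CPM, and stressed females its second highest, female stressed 2 at 17.5 CPM. The stress difference of Napepld was -0.043 in females (95% interval -0.31 to 0.22) and 0.057 in males (95% interval -0.20 to 0.32), the widest intervals of the set in both. The precision for Napepld was therefore the lowest of the 8 in these comparisons.

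Faah (chromosome 4, 115967145 to 116017926, minus strand) encodes the enzyme that hydrolyses anandamide. Male controls had 36.8, 31.3, 36.7, 34.8 and 34.2 CPM of Faah, and stressed males had 34.1, 28.5, 29.3, 29.2 and 31.5 CPM. Stressed males were lower as a group, but male stressed 1 and male stressed 5 were above male control 2, so the groups overlapped. The difference of Faah in males was -0.20 on the log2 scale (SE 0.069, 95% interval -0.34 to -0.053), with an unadjusted p of 0.00954 and an adjusted p of 0.167.

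Female controls had 31.5, 35.05, 33.8, 34.3 and 29.5 CPM of Faah, and stressed females had 33.9, 36.2, 30.4, 29.8 and 29.3 CPM. These groups overlapped over most of their range. The difference of Faah in females was -0.038 on the log2 scale (95% interval -0.18 to 0.11). The male stress effect on Faah was 0.16 below the female one on the log2 scale (95% interval -0.36 to 0.047), and at an unadjusted p of 0.124 and an adjusted p of 0.586 this was the smallest p among the 8 genes for the interaction, in which 0% of all genes were called.

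**Figure D3:**
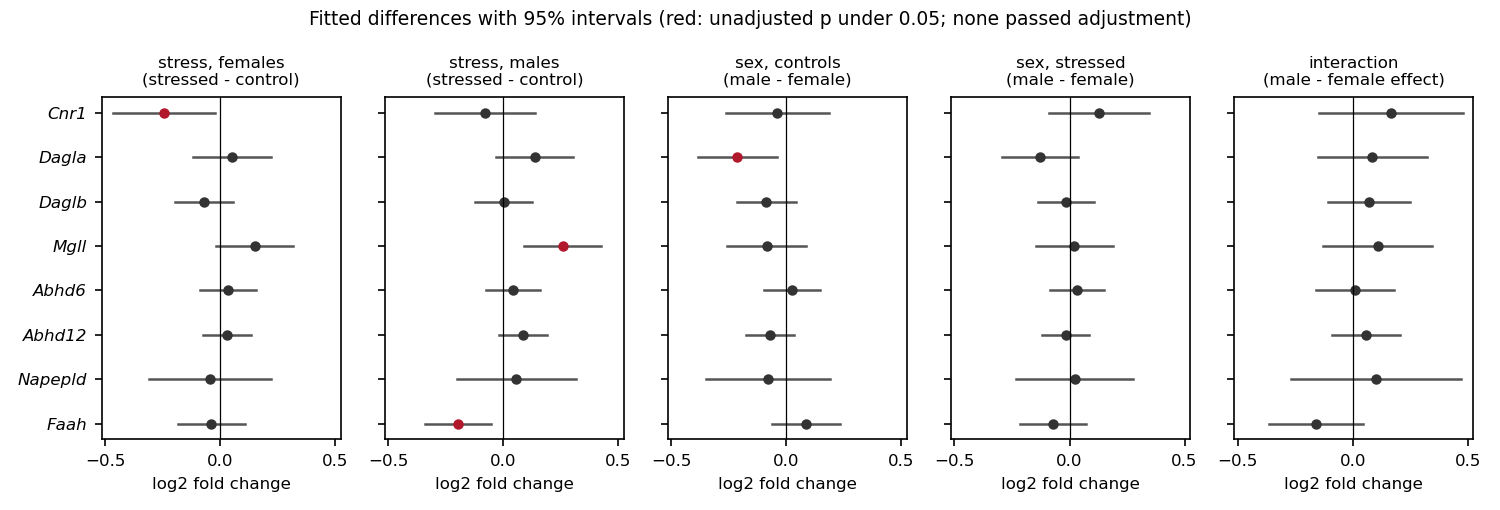
Fitted log2 fold changes of the 8 genes (points) with 95% intervals (lines) in the 5 comparisons, from the edgeR model; red marks an unadjusted p under 0.05. The 4 red points are Cnr1 in females, Mgll and Faah in males and Dagla between control sexes, and none passed after adjustment over all genes.

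Counted over the set, 4 of the 8 genes were higher and 4 lower with stress in females, with a median of -0.0048 on the log2 scale beside -0.0011 over all genes. In males 6 were higher and 2 lower, with a median of 0.050 beside -0.0067 over all genes. Male controls were lower than female controls for 6 of 8, with a median of -0.076 beside 0.00025, and among stressed mice 4 were higher and 4 lower. For the interaction 7 were higher and 1 lower, with a median of 0.079 beside 0.0028 over all genes. Unadjusted p-values under 0.05 came for 1 gene with stress in females (7.51% of all genes), 2 in males (15.5%), 1 between control sexes (15.3%), 0 between stressed sexes (7.06%) and 0 for the interaction (10.4%). DESeq2 called 0 of the 8 in all 5 comparisons as well, against 0.0077% of all genes with stress in females, 1.67% with stress in males, 1.91% between control sexes, 0.112% between stressed sexes and 0.173% for the interaction.

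The main hydrolases of the 2 ligands can be set against each other within a library, as the ratio of Mgll to Faah in CPM. This is a ratio of RNA levels and no measure of ligand clearance. It was chosen after their values were seen and is given without a test. In male controls the ratio was 2.76, 3.42, 2.49, 2.96 and 3.12 for replicates 1 to 5, and in stressed males it was 3.34, 4.55, 4.66, 4.07 and 3.53. The male ranges met only between male stressed 1 and male control 2. In female controls it was 3.57, 3.35, 2.69, 3.23 and 3.78, and in stressed females 3.72, 2.67, 4.40, 4.04 and 4.29. Female stressed 2, at 2.67, was the lowest female library, and the other 4 stressed females spanned 3.72 to 4.40. Across libraries Mgll rose (r = 0.78) and Faah fell (r = -0.79) with the striatal score, as described below. That score did not overlap between the male groups, so stress and score can not be told apart well in the male ratios.

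Several of the 8 genes varied across libraries together with the markers of particular cell types, whichever group a library came from. Correlations were computed over 20 libraries between each gene and the score of each of 9 marker lists, 72 relations in all, of which 9 had an adjusted permutation p under 0.05. Dagla followed the striatal score with Pearson r = 0.83 (permutation p = 1e-05, the smallest that 100000 resamples can give, adjusted p = 0.00072) and Spearman rho = 0.79 (permutation p = 6e-05). Mgll followed it with r = 0.78 (permutation p = 8e-05, adjusted p = 0.00162) and rho = 0.76 (permutation p = 0.00017). Faah ran against it with r = -0.79 (permutation p = 4e-05, adjusted p = 0.00144) and rho = -0.79 (permutation p = 3e-05).

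Those relations held when the 2 libraries farthest from the median score, female stressed 5 and male stressed 3, were left out, with r = 0.80 for Dagla, 0.73 for Mgll and -0.75 for Faah. With each group centred on its own mean, r was 0.81 for Dagla, 0.75 for Mgll, -0.75 for Faah and 0.38 for Cnr1. Without centring, Cnr1 had r = 0.13 with the striatal score (permutation p = 0.614) and rho = 0.16 (permutation p = 0.506).

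**Figure D4:**
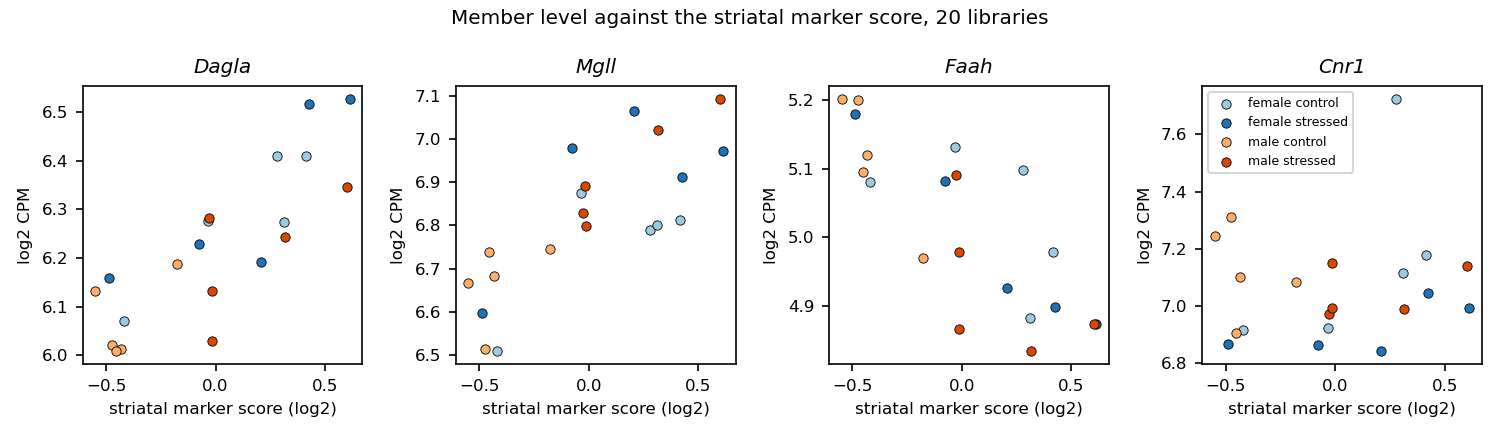
Log2 CPM of Dagla, Mgll, Faah and Cnr1 (vertical axes) against the striatal marker score in log2 units (horizontal axes) in the 20 libraries, coloured by group. Dagla and Mgll are higher and Faah is lower where the score is higher, and Cnr1 has an r of 0.13, with female control 4 far above the other points.

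The levels of striatal markers stand beside the differences given above. All 11 were higher in stressed than in control males, with a median of 0.61 on the log2 scale, and all 11 were lower in male than in female controls, with a median of -0.59. None of the 11 passed the edgeR test in these comparisons. The striatal score ran from -0.55 to -0.18 in male controls and from -0.029 to 0.60 in stressed males, without overlap. Stress and score can therefore not be told apart well in males. This limit applies to every male stress difference and interaction given with that score in the model. With the striatal score as a covariate in the model, the stress difference in males was 0.058 for Mgll (edgeR adjusted p = 0.928), -0.044 for Faah (adjusted p = 0.950) and -0.075 for Dagla. In the same model the difference between the sexes in the stress effect was -0.015 for Faah and 0.031 for Cnr1. The difference of Dagla between control sexes became -0.030 (adjusted p = 0.899), and that of Mgll with stress in females was 0.13 (unadjusted p = 0.0333, adjusted p = 0.468). The part of striatal tissue in these differences was not tested.

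Napepld correlated with 4 other marker scores. Its correlation with the thalamic score was r = 0.78 (permutation p = 9e-05, adjusted p = 0.00162) with rho = 0.83 (permutation p = 7e-05), and r was 0.83 without female control 4 and female stressed 2. With the astrocyte score Napepld had r = 0.76 (permutation p = 0.00015, adjusted p = 0.0018) and rho = 0.84 (permutation p = 2e-05), and r was 0.69 without the 2 farthest libraries. With the oligodendrocyte score it had r = 0.74 (permutation p = 0.00026, adjusted p = 0.00234) and rho = 0.79 (permutation p = 0.00013), and r was 0.61 without them. With the cortical score it had r = 0.76 (permutation p = 0.00014, adjusted p = 0.0018) and rho = 0.64 (permutation p = 0.00372), and r was 0.58 without female control 3 and female stressed 2, the libraries with the most Napepld. With each group centred, r of Napepld was 0.81 with the thalamic, 0.80 with the astrocyte, 0.78 with the oligodendrocyte and 0.84 with the cortical score. With the striatal score Napepld had r = -0.40 (adjusted permutation p = 0.245), and -0.67 after centring. Of the thalamic markers 7 of 9 were in the table, with a summed level of 79.2 to 181 CPM, and of the cortical ones 2 of 5, at 6.40 to 28.7 CPM.

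Adding a score to the model moved the differences of Napepld too. With the striatal score as a covariate its stress difference in males was 0.33 on the log2 scale (SE 0.11, unadjusted p = 0.00821, edgeR adjusted p = 0.802), and its difference between control sexes was -0.30 (adjusted p = 0.265). As given above, the male groups did not overlap in that score. Oligodendrocyte markers were lower in stressed than in control females for all 10 genes, with a median of -0.25, and none passed. With their score in the model the stress difference in females was 0.12 for Napepld (adjusted p = 0.889) and 0.092 for Mgll (unadjusted p = 0.273, adjusted p = 0.911).

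Mgll ran against the cortical score with r = -0.75 (permutation p = 0.00022, adjusted p = 0.00226) and rho = -0.73 (permutation p = 0.00041), and r was -0.64 without the 2 farthest libraries. Abhd12 followed the microglial score with r = 0.67 (permutation p = 0.00141, adjusted p = 0.0113) and rho = 0.60 (permutation p = 0.00585). Without male control 1 and male control 3 that r was 0.41, so the relation rests in good part on these libraries. With each group centred and these libraries kept, r of Abhd12 with the microglial score was 0.69.

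Among the 28 pairs of the 8 genes, 2 had an adjusted permutation p under 0.05. Faah and Mgll ran against each other with r = -0.71 (permutation p = 0.00046, adjusted p = 0.0112) and rho = -0.70 (permutation p = 0.00087). That r was -0.69 without the 2 farthest libraries and -0.58 after centring each group. Mgll and Abhd12 varied in the same direction with r = 0.68 (permutation p = 0.0008, adjusted p = 0.0112) and rho = 0.68 (permutation p = 0.00125), and r was 0.55 without the 2 farthest libraries. Cnr1 was not part of either pair.

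Among the genes whose log2 CPM was most like that of Dagla over the 20 libraries were Man2a2 (r = 0.95) and Adgrl1 (r = 0.92), and 4.82% of all genes had an r above 0.7 with Dagla. For Mgll the closest were Mgat4b (r = 0.91), Spata2l (r = 0.91) and Dusp18 (r = 0.91), with 3.83% of genes above 0.7. For Cnr1 they were Phykpl (r = 0.81), Ganab (r = 0.81) and Nr6a1 (r = 0.77), with 0.162% of genes above 0.7. As the highest of all genes these carry no test. By these shares, which count positive r only, Dagla and Mgll varied with more genes than Cnr1 did. The shares cover all 20 libraries, with female control 4 included, and were not computed without it.

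The wider pathway was covered by a list of 39 further genes for lipid carriers, other synthesis and breakdown enzymes, other receptors, and the receptors and G proteins that drive 2-AG synthesis or carry the CB1 signal. Of these 28 were in the table, and 0 passed in any of the 5 comparisons, higher or lower. Unadjusted p-values under 0.05 came for 1 of 28 with stress in females (7.51% of all genes) and 8 in males (15.5%). They came for 11 between control sexes (15.3%), 2 between stressed sexes (7.06%) and 6 for the interaction (10.4%).

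Fabp7, a brain fatty acid binding protein made by astrocytes and one of the carriers that bring anandamide to Faah, had the smallest p of the list with stress in both sexes. Female controls had 25.01, 24.6, 25.8, 24.5 and 26.0 CPM of Fabp7, and stressed females had 15.9, 20.8, 20.8, 11.8 and 13.1 CPM. Male controls had 30.8, 27.6, 31.8, 28.4 and 29.4 CPM, and stressed males had 18.8, 14.1, 23.1, 26.0 and 22.9 CPM. Every stressed library was below every control library of its sex, and the controls lay close together while the stressed libraries spread widely. Fabp7 was 1 of 2 genes, 0.0154% of all, that were lower without overlap in both sexes, a count made after its values were seen; the other was Wfdc1, whose male groups came within 0.01 CPM of each other.

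The stress difference of Fabp7 was -0.61 in females (SE 0.15, adjusted p = 0.377) and -0.46 in males (SE 0.14, adjusted p = 0.116) on the log2 scale by edgeR, and passed in neither. DESeq2 gave Fabp7 an adjusted p of 0.0474 in males, where it called 1.67% of all genes. In females the DESeq2 adjusted p of Fabp7 was 0.0877, where 0.0077% of all genes were called. With the striatal score in the edgeR model its stress difference was -0.24 in males (adjusted p = 0.842) and -0.61 in females (adjusted p = 0.0913). Of 8 astrocyte markers, all in the table, 3 were higher and 5 lower in stressed females (median -0.045), and 4 were higher and 4 lower in stressed males (median -0.024). Their summed level was from 4690 to 5261 CPM for control and 4486 to 4858 for stressed females, and from 4455 to 4605 for control and 4742 to 4942 for stressed males. Among stressed mice Fabp7 was 0.38 higher in males on the log2 scale (adjusted p = 0.628).

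Most other pathway genes named by the smallest p act on the postsynaptic side. Camk2a, the kinase subunit that can phosphorylate Dagla, had 1360 ± 39.0 CPM in male controls and 1615 ± 126 in stressed males (SD, n = 5), a difference of 0.25 on the log2 scale (SE 0.075, edgeR adjusted p = 0.119). Plcb1, a phospholipase C that supplies the diacylglycerol from which 2-AG is made, was 0.27 below in male controls against female controls (adjusted p = 0.106), and its stress effect was 0.36 higher in males (adjusted p = 0.330). Chrm3, a muscarinic receptor coupled to that phospholipase, was 0.29 higher in male than in female controls (adjusted p = 0.180). Homer1, a postsynaptic scaffold protein, had a stress effect 0.46 higher in males (adjusted p = 0.423). With the striatal score in the model these differences were smaller: 0.051 for Camk2a with stress in males (edgeR adjusted p = 0.913), -0.064 for Plcb1 and 0.18 for Chrm3 between control sexes, and 0.14 for Plcb1 and 0.055 for Homer1 in the interaction. Fabp3, a fatty acid binding protein, was 0.22 below on the log2 scale in stressed males against stressed females (adjusted p = 0.649) and did not pass either.

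**Figure D5:**
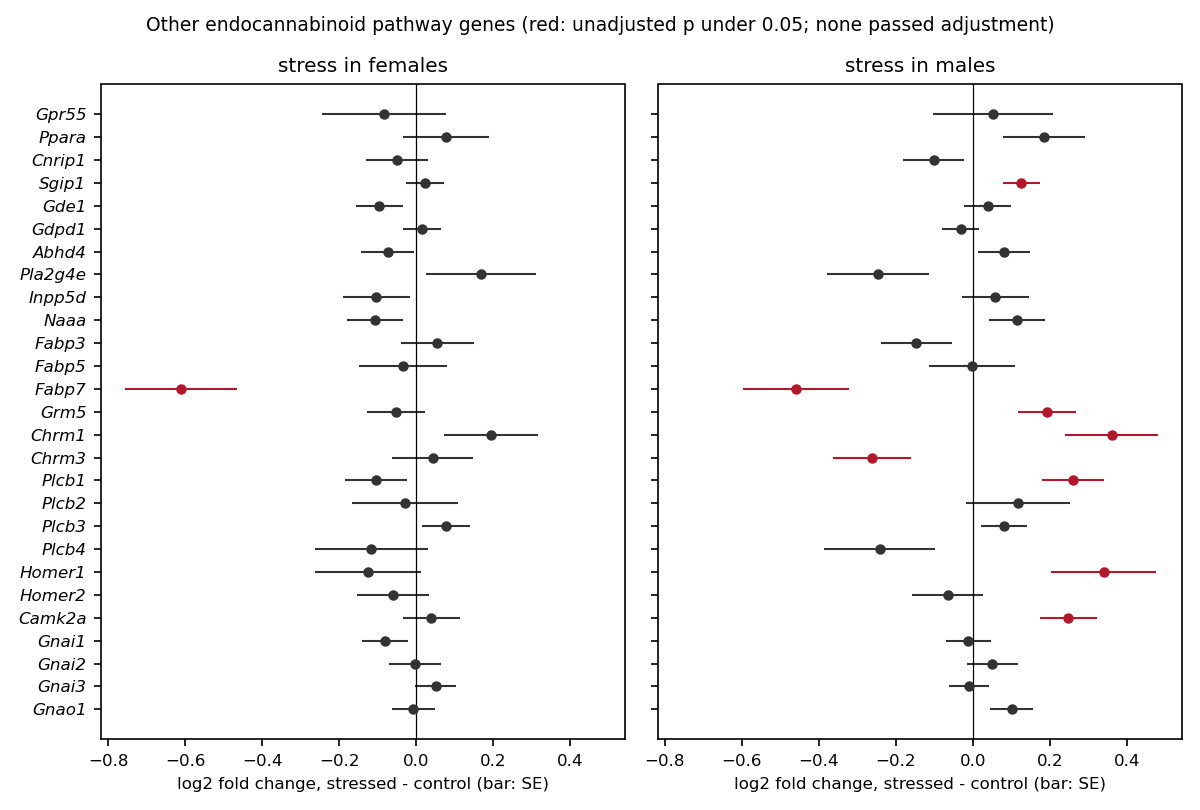
Log2 fold change with stress (points) and its SE (bars) for other pathway genes in females and in males, from the edgeR model; red marks an unadjusted p under 0.05. Fabp7 is the point farthest below 0 in both panels, at -0.61 and -0.46. Red points number 8 in males and 1 in females, where 15.5% and 7.51% of all genes had an unadjusted p under 0.05.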

How the data were processed

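Whole-number counts per gene, deposited by the authors without normalization, were analysed for 20 libraries prepared, per the labels, by a stranded mRNA protocol. Per the submitters' processing notes, STAR, featureCounts and the mm10 genome were used; versions, annotation and the strand setting of counting are not given in the sources used here. The lowest row total of the table was 1002, so genes with fewer counts were not analysed here. edgeR 4.0.16 (R 4.3.3) fitted 1 mean per group with TMM factors and the quasi-likelihood test; filterByExpr kept all 12988 genes, and the common biological coefficient of variation was 8.83%. P-values are two-sided. SE is the log2 fold change divided by the root of F. Log2 CPM for scores and correlations used a prior count of 2. Exon lengths (the union of all annotated exons of a gene, GENCODE M21) covered 12818 genes, 98.69%. The 0 unmapped columns left nothing out. Every one of the 8 genes was described in every comparison; of other pathway genes, those passing were to be named, or else the 2 with the smallest p; as most alike, the 3 genes of highest r for Cnr1, Dagla and Mgll; 2 genes these rules name are not reported here. The genes, lists and tests were chosen with earlier results of these data known. The pipeline was tested on simulated data. Alternatives included DESeq2 1.42.0, other scalings, filters, covariates, a replicate block and leaving out libraries; 1, without female control 4 and female stressed 2, was added after seeing the data.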

Additional observations from a re-analysis of the deposited data

Results flagged for a closer look

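In 60 groups of 5 libraries, covering these genes and the named pathway genes, 3 held a library far from the other 4 by Dixon's criterion, and chance gives about 1 in 20. Cnr1 was high in female control 4, at 211.6 CPM against 120.7 to 144.8 in the other female controls. Mgll was low in female control 3, at 91.0 CPM against 110.7 to 117.3 in the others. Homer1 was high in male stressed 3, at 215.0 CPM against 155.7 to 167.2 in the others. For the 8 endocannabinoid genes this was 2 of 32 groups.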

How the results depend on the processing

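None of the 8 genes passed in any comparison under any alternative run, DESeq2 and every left-out library included. Over the named genes, under alternatives other than leaving out 1 library, 367 values kept their direction and side of the threshold, 18 turned and 5 came past the threshold, all in pathway genes outside the 8. Those 5 were Fabp7 with stress in males (DESeq2, adjusted p = 0.0474), Camk2a with stress in males (edgeR on only the groups compared, adjusted p = 0.0454), Plcb1 between control sexes (edgeR on only the groups compared, 0.0282, and with the oligodendrocyte score as a covariate, 0.0479) and Chrm3 between control sexes (edgeR with that score, 0.0341). Values of those genes that stayed on their side of the threshold could still shrink: with the striatal score, Fabp7 and Camk2a with stress in males were -0.24 and 0.051, and Plcb1 and Chrm3 between control sexes -0.064 and 0.18.

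The direction turned for small log2 differences. With the oligodendrocyte score it turned for Dagla -0.018 and Napepld 0.12 with stress in females, Daglb -0.0086 with stress in males, Napepld 0.011 between control sexes, Napepld -0.0030 between stressed sexes, Napepld -0.014 for the interaction. With the striatal score as a covariate it turned for Dagla -0.075 and Daglb -0.0061 with stress in males, Cnr1 0.089, Faah -0.044, Mgll 0.087 between control sexes, Mgll -0.075, Dagla -0.11, Abhd6 -0.016 for the interaction. Without both female control 4 and female stressed 2, chosen after seeing the data, it turned for Cnr1 0.095 between control sexes, Mgll -0.051 and Daglb 0.0007 between stressed sexes, Abhd6 -0.0009 for the interaction. With 1 library left out, 35 of 600 values turned, with these ranges: Dagla -0.0037 to 0.096, Napepld -0.17 to 0.094 with stress in females, Daglb -0.022 to 0.036 with stress in males, Abhd6 -0.0093 to 0.053, Cnr1 -0.10 to 0.095, Napepld -0.16 to 0.059 between control sexes, Abhd12 -0.041 to 0.011, Daglb -0.039 to 0.019, Mgll -0.051 to 0.060, Napepld -0.037 to 0.14 between stressed sexes, Abhd6 -0.024 to 0.042, Napepld -0.037 to 0.22 for the interaction. The cause was not tested.

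Over all genes, the calls with stress in males ran from 1 to 303 over the alternatives (1 as reported) and reached 129 without male stressed 5, those between control sexes from 48 to 324 (97 as reported; 32 without female control 5 and 214 without female control 3, the range with 1 library left out), those with stress in females from 0 to 2 and those for the interaction from 0 to 22. The 9 correlations with an adjusted p under 0.05 were also 9 in number with a prior count of 0.5. The labels do not say that replicate numbers pair the libraries. Same-numbered libraries' deviations from their group means correlated between -0.473 and 0.237. Differently numbered libraries were not set beside them, so a link by number was not tested. With the replicate block 0 of the 8 genes passed, and 48 genes of all between control sexes. Depth limits female control 4 most, at 2.71 M counts.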
